A study of Mus musculus with 33 samples.

Results

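Voltage-gated sodium and calcium channels, hyperpolarization-activated HCN channels, the sodium leak channel, calcium release channels, anoctamin 8 and TRP channels were followed as 1 group of 37 genes in the CA1 region of the mouse hippocampus. The members were given by name, and all 37 were found among the 38355 genes of the count files and among the 40678 loci of the FPKM files. They fall into 12 families by the part they play in a channel. The study asked how JQ1, an inhibitor that keeps BET proteins off acetylated chromatin, acts in a mouse model of amyloid pathology and in healthy mice.

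The aged mice were 8 to 10 months old and came in 3 groups. The transgenic line, here APP mice, carries human mutant APP driven by the Thy1 promoter, which is active in neurons. 6 APP mice received JQ1 at 50 mg/kg i.p. for 10 days and 6 received vehicle, 10% DMSO i.p., for 10 days. WT mice received the same vehicle in the same way, and replicates 1, 3, 4 and 5 of this group were used. The strain label of the WT mice names the transgenic line, so they are called WT from their titles. Reads on App ran from 1852 to 1990 CPM (read counts scaled to the reads on genes of each library) in WT, from 2251 to 2714 in vehicle-treated APP and from 1779 to 2494 in JQ1-treated APP mice, so vehicle-treated APP mice lay above WT and the range after JQ1 overlapped that of WT. The young mice were C57B/6JRj WT mice of 3 months, 8 given JQ1 at 50 mg/kg i.p. and 8 given 10% DMSO, each for 13 days. No group of WT mice aged 8 to 10 months received JQ1.

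The aged libraries held 14605459 to 25339482 reads on genes, so 3 reads correspond to 0.118 to 0.205 CPM and Hcn4, at 0.506 to 1.93 CPM in the APP mice, was the member nearest to that limit. The depth of the young libraries is unknown. Camk2a, a marker of excitatory neurons, lay between 3509 and 5833 CPM in the aged libraries, and all 5 CA1 pyramidal markers were found in every group. WT replicate 1 stood apart in the balance between genes rich and poor in GC and in markers of hippocampal fields. It held 19.5 CPM of the dentate marker Prox1 against 58.0 to 74.9 CPM in the other 3 WT libraries. Its summed CA3 and CA2 markers, at 257 CPM, were the highest of the WT libraries, whose median was 172. Its summed CA1 pyramidal markers, at 5206 CPM, were the lowest, against a median of 5985. The part of these differences in results that change without this mouse was not tested. WT replicate 4 held 3062 CPM of the choroid plexus marker Ttr against 9.43 to 21.3 CPM in the other 3 WT libraries. Tissue was bulk CA1, so fewer cells of a type and less RNA per cell cannot be told apart.

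These channels set how easily a CA1 neuron fires. Sodium channel pores carry the rising phase of the action potential, the sodium leak channel and HCN channels set the resting potential and the integration of dendritic inputs, and calcium channels couple spikes to transmitter release, to bursts and to gene expression. Ryanodine and IP3 receptors release calcium from internal stores, and TRP channels pass cations in response to receptors, oxidative stress or heat.

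The bases before the start sites are shown for 3 members with higher and 2 with lower mean counts after JQ1 in APP mice, because a BET inhibitor acts at chromatin and the members differ widely in base composition there. Each line holds the 200 bases before 1 RefSeq start site, 5′ to 3′ on the gene's strand in build GRCm38.p6, with CG dinucleotides in capitals. The windows of Cacnb4 and Cacnb1 lie inside the gene spans of GENCODE, which end at 52676831 and 98023034. Their start sites are thus internal to the annotated genes.
Unc80, chr1:66467734-66467933, plus strand: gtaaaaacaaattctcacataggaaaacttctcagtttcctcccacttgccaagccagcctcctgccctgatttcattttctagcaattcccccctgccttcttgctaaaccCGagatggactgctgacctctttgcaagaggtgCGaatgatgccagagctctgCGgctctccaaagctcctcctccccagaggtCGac
Nalcn, chr14:123627145-123627344, minus strand: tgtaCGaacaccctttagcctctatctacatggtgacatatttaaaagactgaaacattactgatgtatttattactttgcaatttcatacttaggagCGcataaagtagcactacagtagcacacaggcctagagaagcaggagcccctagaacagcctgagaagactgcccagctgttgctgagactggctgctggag
Cacnb4, chr2:52676144-52676343, minus strand: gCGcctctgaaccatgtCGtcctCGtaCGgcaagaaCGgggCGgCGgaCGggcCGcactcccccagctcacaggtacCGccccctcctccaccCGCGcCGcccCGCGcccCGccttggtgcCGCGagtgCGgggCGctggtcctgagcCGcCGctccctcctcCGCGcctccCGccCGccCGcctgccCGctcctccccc
Hcn2, chr10:79716434-79716633, plus strand: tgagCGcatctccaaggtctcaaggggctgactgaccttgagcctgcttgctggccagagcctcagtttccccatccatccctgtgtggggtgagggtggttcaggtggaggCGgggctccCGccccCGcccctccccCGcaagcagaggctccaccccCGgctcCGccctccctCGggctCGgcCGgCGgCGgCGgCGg
Cacnb1, chr11:98022628-98022827, minus strand: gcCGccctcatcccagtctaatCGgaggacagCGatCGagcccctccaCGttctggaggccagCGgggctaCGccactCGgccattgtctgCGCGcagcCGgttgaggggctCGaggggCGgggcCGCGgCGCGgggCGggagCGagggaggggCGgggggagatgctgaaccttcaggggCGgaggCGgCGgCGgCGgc
The windows of Unc80 and Nalcn hold 4 and 2 CG dinucleotides, whereas those of Cacnb4, Hcn2 and Cacnb1 hold 28, 14 and 25. RefSeq start sites were matched for 28 of the 37 members. From 250 bases before to 50 after the start, the median GC content of those 28 was 65.7% with 21.5 CG dinucleotides, against 52.7% and 7 over 32851 mouse start sites. The letters GGGCGG stood on either strand in 57.1% of the members' windows and in 35.7% of all windows. TATAAA stood in 10.7% and 13.6%, and TGACGTCA in 0 of 28 members and 1.79% of all windows. The promoter windows overlapped between directions. The 6 matched members with higher means at an unadjusted p under 0.05 after JQ1 held 3 to 42 CG dinucleotides, and the 4 matched members with lower means held 9 to 34.

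Levels can be compared between genes only per length, which the FPKM values of the young mice allow. 6 members had more than 1 locus under their name, and the locus with the highest mean was used. Judged by the strand of neighbouring loci, the unused loci lay on the strand opposite to the gene. The highest of them was 2.64 FPKM for Trpc5, beside 6.09 for the locus used, as means over all young mice. In the 8 vehicle-treated young mice, 22 of the 37 members had a mean of 20 FPKM or more and 3 had less than 5. The sodium channel beta subunits Scn3b, at 78.1 ± 11.4 FPKM (SD, n = 8), and Scn2b, at 68.2 ± 2.14, and the IP3 receptor Itpr1, at 67.7 ± 6.70, led the order. Scn3b was above 94.1% of the loci tested. Cacnb3, the calcium channel beta subunit with the highest level of its 4-member family, stood at 51.9 ± 3.73 FPKM. Scn8a, the sodium channel pore of the axon initial segment, followed at 42.6 ± 3.81 FPKM, and Unc80, the scaffold of the sodium leak channel, at 40.9 ± 3.32 FPKM. At the lower end were Itpr2 at 3.59 ± 0.39, Ryr1 at 1.93 ± 0.28 and Hcn4 at 0.338 ± 0.075 FPKM. Between neighbours in this order the ranges overlapped in 32 of 36 cases, so most adjacent ranks are not distinct. The exceptions were the step from Itpr1 to Cacnb3 and the last 3 steps, from Hcn3 to Itpr2, Ryr1 and Hcn4. Per kilobase of exon, the aged vehicle-treated APP mice gave a like order (Spearman's rho 0.925 over 37 genes, a description across genes).

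**Figure D1:**
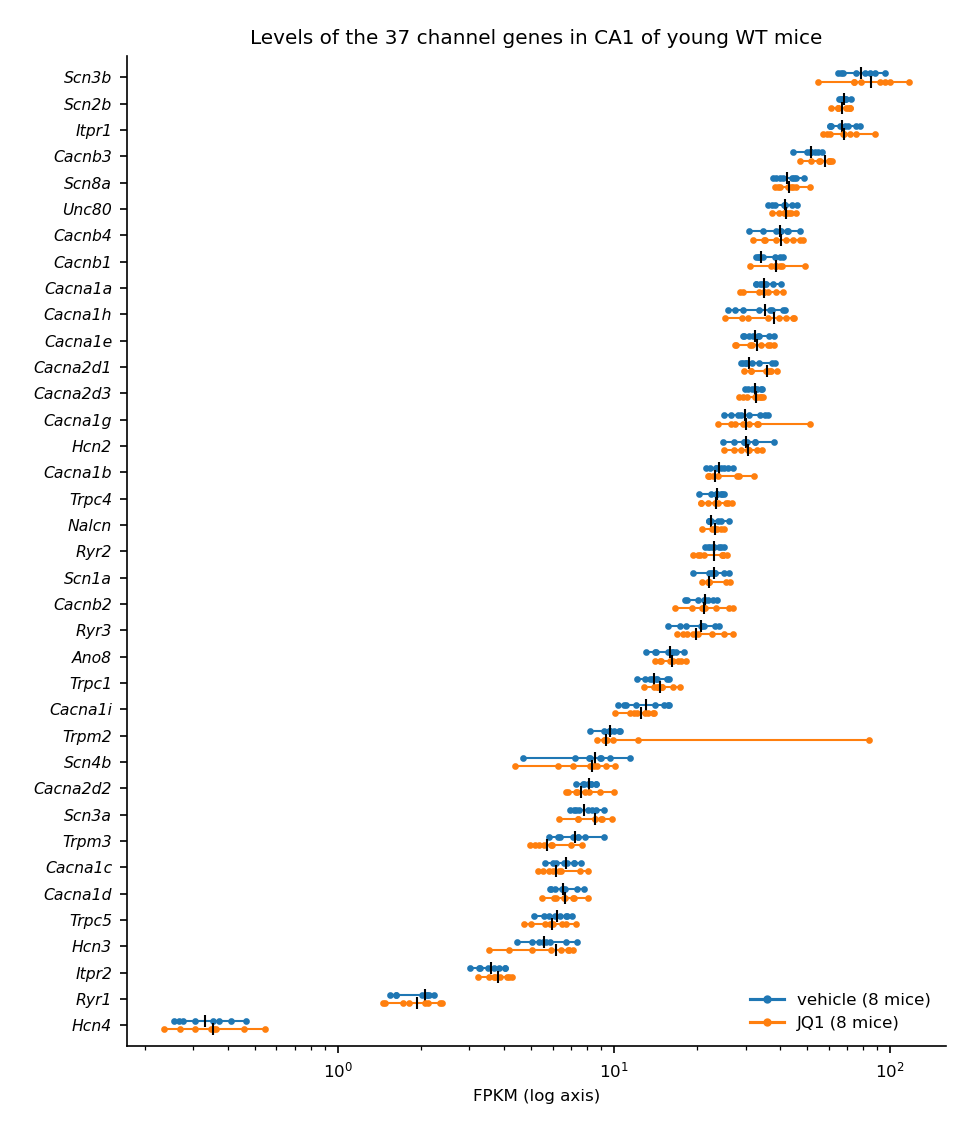
FPKM of the 37 channel genes on a log axis in CA1 of young WT mice given vehicle (blue) or JQ1 (orange), ordered by the vehicle mean, with a point per mouse, a line over the range and a black tick at the median. The colours overlap for every gene, and 1 JQ1 mouse has 83.8 FPKM of Trpm2.

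Among the sodium channel pores, Scn1a, of fast-spiking interneurons, stood at 23.1 ± 2.05 FPKM and Scn3a, the pore most abundant before birth, at 7.88 ± 0.78 FPKM. Among calcium channel pores the presynaptic Cacna1a, of P/Q-type channels, at 35.3 ± 2.64 FPKM, the T-type Cacna1h, at 34.2 ± 6.04, and the R-type Cacna1e, at 32.9 ± 3.10, had overlapping ranges. The L-type pores Cacna1c and Cacna1d were lower, at 6.64 ± 0.67 and 6.60 ± 0.68 FPKM. Hcn2 stood at 30.6 ± 3.89 FPKM and Hcn3 at 5.75 ± 0.91. Of the TRP channels, Trpc4 and Trpc1 stood at 23.5 ± 1.49 and 14.0 ± 1.24 FPKM and Trpm2, Trpm3 and Trpc5 at 9.67 ± 0.74, 7.19 ± 1.08 and 6.20 ± 0.65.

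JQ1 in APP mice was compared with vehicle in APP mice by edgeR's quasi-likelihood test over 16962 genes. None of the 37 members had an adjusted p under 0.05, where 1.08% of all genes did, and the lowest was 0.0552 for Ano8. At an unadjusted p under 0.05 stood 14 members, 37.8%, against 17.6% of all genes: 7 with higher means, where 8.42% of all genes were, and 7 with lower means, where 9.19% were. DESeq2 called 5 members (Unc80 and Scn3a higher, Ano8, Cacna1h and Hcn2 lower), where it called 5.24% of all genes with an adjusted p. The median log2 fold change of the members was −0.05 against 0.00 over all genes, and the median of its size, without sign, was 0.25 against 0.16. The members were chosen with earlier results known, so the counts describe the list and are no test of it. Since 1 spread is fitted over all 3 aged groups, leaving out WT replicate 1 also moved this count, from 0 to 4 members called (Unc80, Scn3a, Cacna1h and Ano8), while calls over all genes went from 184 to 446 of 17330, or 2.57%. The summed astrocyte markers ran from 1098 to 1636 CPM with JQ1 and from 995 to 1303 with vehicle, and the summed interneuron markers from 631 to 865 and from 671 to 856, and their part in the values below was not tested. The Benjamini-Hochberg adjusted p-values below are over all genes.

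**Figure D2:**
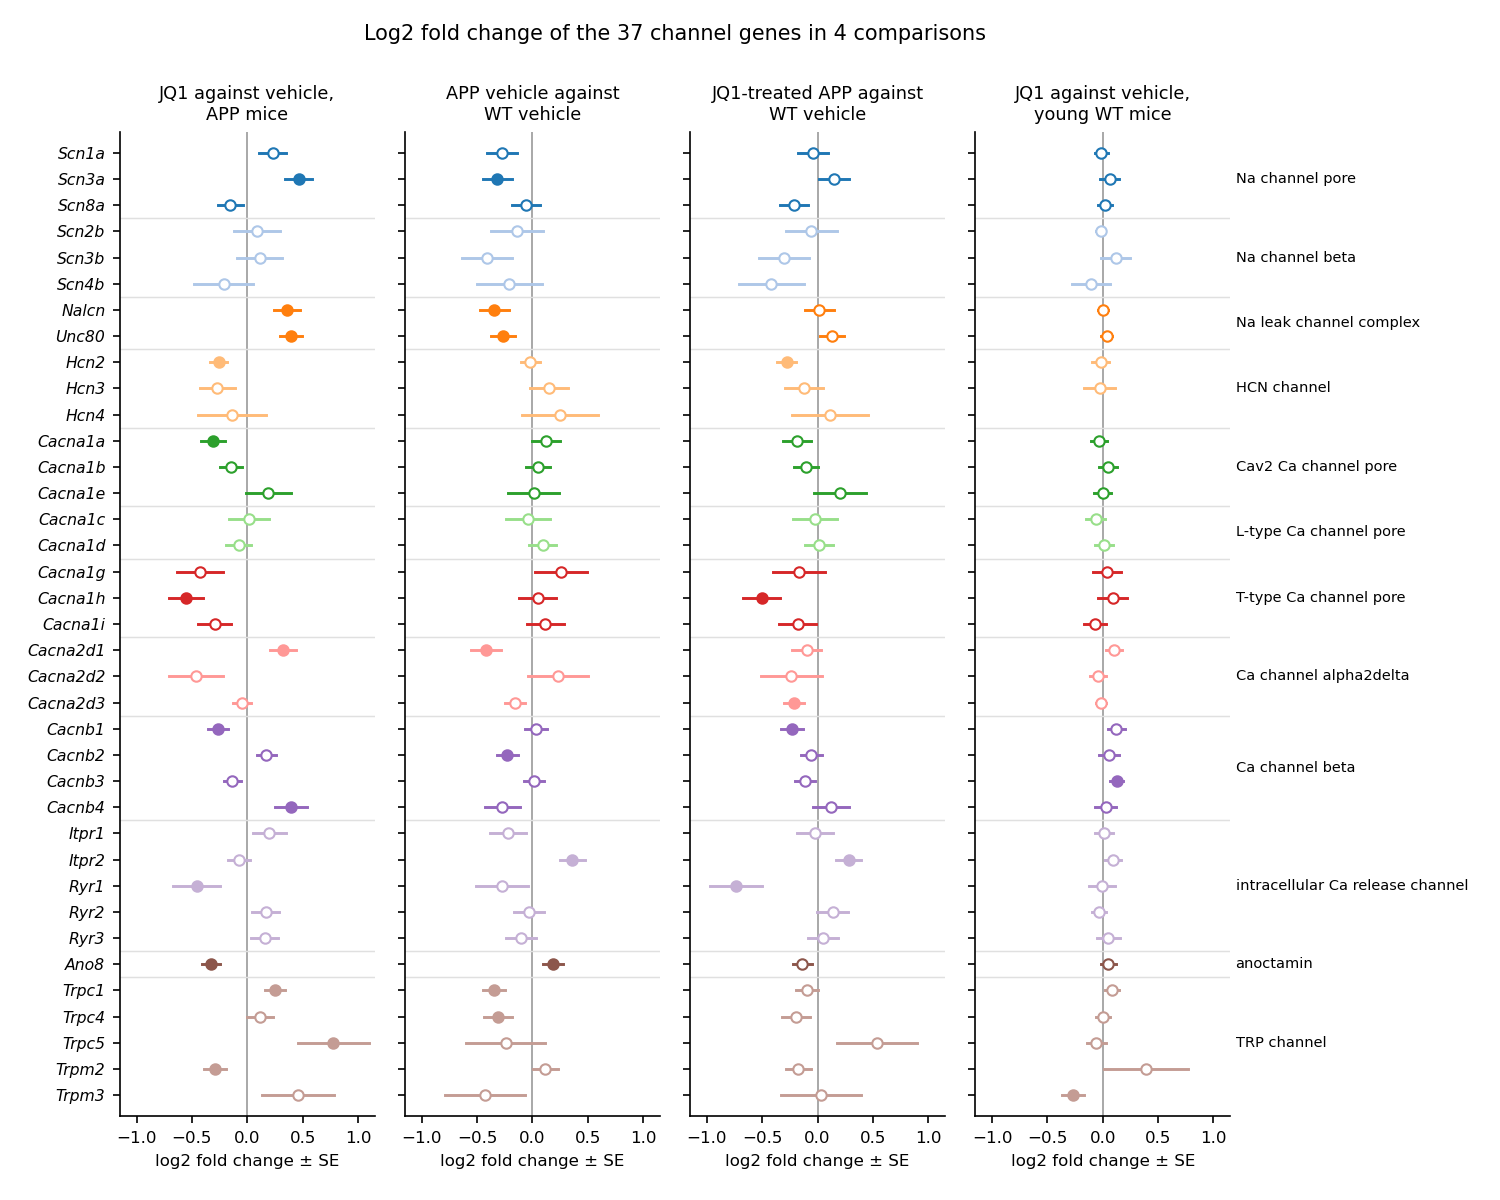
Log2 fold change (x axis, bars ± 1 SE) of the 37 channel genes, grouped by family, in 4 comparisons, with filled points at an unadjusted p under 0.05. The left panel holds 14 filled points, 7 on each side of 0, and the right panel, of young mice on the log2(FPKM + 0.1) scale, holds 2.

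Both members of the sodium leak channel complex had higher means after JQ1. Unc80 (chr1:66468367-66699148, GRCm38) ranged from 227 to 325 CPM with a median of 273 in vehicle-treated APP mice and from 305 to 415 with a median of 355 after JQ1. The ranges touch only between 305 and 325 CPM. Its log2 fold change was 0.40 ± 0.10 (SE), with an adjusted p of 0.0553 in edgeR and 0.00629 in DESeq2. Nalcn (chr14:123276634-123627144), the pore that Unc80 serves, ranged from 84.2 to 125 CPM with vehicle (median 102) and from 109 to 167 CPM with JQ1 (median 127). Its log2 fold change was 0.36 ± 0.12 at an adjusted p of 0.126. Unc79, the further scaffold protein of this complex and no member, had a log2 fold change of −0.02 ± 0.10.

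Scn3a (chr2:65457118-65567627) ranged from 26.8 to 46.4 CPM with vehicle (median 37.2) and from 43.5 to 59.4 CPM with JQ1 (median 52.6). The log2 fold change was 0.47 ± 0.12, and the adjusted p was 0.0668 in edgeR and 0.0135 in DESeq2. The other sodium channel pores gave 0.23 ± 0.12 for Scn1a and −0.15 ± 0.12 for Scn8a, and the 3 beta subunits lay between −0.21 and 0.11. None of these 5 had an unadjusted p under 0.05.

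All 3 HCN channels, which open on hyperpolarization and carry the pacemaker current, had negative log2 fold changes, from −0.27 to −0.14, and those of Hcn2 and Hcn4 turned positive with a correction for GC content and length. Hcn2 (chr10:79716634-79736108) ranged from 86.7 to 104 CPM with vehicle (median 95.8) and from 70.9 to 89.7 CPM with JQ1 (median 78.9), so that the highest JQ1 mouse passed only the lowest vehicle mouse. The log2 fold change was −0.26 ± 0.08, with an adjusted p of 0.101 in edgeR and 0.0477 in DESeq2. Once each library was corrected in this way, Hcn2 stood at 0.16 with an adjusted p of 0.612, Hcn4 at 0.026 and Hcn3 at −0.04.

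The 3 T-type calcium channel pores, which open near rest and drive bursts, all had lower means after JQ1, and only Cacna1h stood at an unadjusted p under 0.05. Cacna1h (chr17:25374285-25433783) ranged from 177 to 236 CPM with vehicle (median 200) and from 111 to 181 CPM with JQ1 (median 133). 1 JQ1 mouse lay within the vehicle range. The log2 fold change was −0.55 ± 0.15, and the adjusted p was 0.0775 in edgeR and 0.0172 in DESeq2. Cacna1g gave −0.42 ± 0.21 at an unadjusted p of 0.0572 and Cacna1i −0.30 ± 0.15 at 0.0617, both by edgeR. All 3 remained negative under the GC and length correction, at −0.35 for Cacna1h, −0.26 for Cacna1g and −0.10 for Cacna1i. Exons of Tpsg1 on the other strand overlap 158 bases, or 1.62%, of the exons of Cacna1h.

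Of the presynaptic Cav2 pores, Cacna1a had a log2 fold change of −0.31 ± 0.11 (unadjusted p 0.0121 by edgeR), and N-type Cacna1b and R-type Cacna1e gave −0.15 ± 0.10 and 0.19 ± 0.21. The L-type pores Cacna1c and Cacna1d were near 0, at 0.02 ± 0.18 and −0.08 ± 0.11. Cacna2d1, an alpha2delta subunit that brings channels to the surface, ranged from 159 to 204 CPM with vehicle and from 169 to 299 CPM with JQ1, with a log2 fold change of 0.32 ± 0.12 (unadjusted p 0.0149). The GC and length correction took Cacna2d1 to 0.07, at an adjusted p of 0.864, and Cacna1a to −0.13. Cacna2d2 gave −0.47 ± 0.25 and Cacna2d3 −0.05 ± 0.08. In the vehicle group of Cacna2d2, replicate 1 held 109 CPM and the other 5 mice 31.4 to 48.5.

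The beta subunits, cytoplasmic partners that set gating and trafficking, had log2 fold changes of both signs, and those of Cacnb1, Cacnb2 and Cacnb3 turned with the GC and length correction. Cacnb1 (chr11:98001508-98023034) ranged from 152 to 181 CPM with vehicle (median 163) and from 117 to 158 CPM with JQ1 (median 135), a log2 fold change of −0.26 ± 0.09 at an adjusted p of 0.144. The GC and length correction took it to 0.028. Cacnb4 (chr2:52428320-52676831) ranged from 83.9 to 128 CPM with vehicle (median 107) and from 95.9 to 180 CPM with JQ1 (median 137), a log2 fold change of 0.39 ± 0.14 at an adjusted p of 0.166. 15.99% of the exons of Cacnb4 overlap A430018G15Rik on the other strand, which was counted as a gene of its own. Where strand was not counted, reads on the shared bases fit both genes and could not be assigned to either. Cacnb2 and Cacnb3 gave 0.17 ± 0.09 and −0.13 ± 0.08. With the correction Cacnb2 stood at −0.06, Cacnb3 at 0.17 and Cacnb4 at 0.13.

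Among channels that release calcium from stores, Ryr1, the ryanodine receptor best known from skeletal muscle, had a log2 fold change of −0.46 ± 0.22 (unadjusted p 0.049 by edgeR), from 36.3 to 62.8 CPM with vehicle to 22.7 to 52.7 CPM with JQ1. Ryr2, Ryr3, Itpr1 and Itpr2 lay between −0.08 and 0.20, and none had an unadjusted p under 0.05. Ano8 (chr8:71476019-71485963), an anoctamin of contacts between the endoplasmic reticulum and the plasma membrane, was the only member whose groups did not overlap, where 2.03% of all genes did not. It ranged from 57.1 to 64.8 CPM with vehicle (median 61.2) and from 42.4 to 52.9 CPM with JQ1 (median 50.1). Its log2 fold change was −0.33 ± 0.08, and the adjusted p was 0.0552 in edgeR and 0.00939 in DESeq2.

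Of the TRP channels, Trpm2, opened by ADP-ribose during oxidative stress, ranged from 41.7 to 72.0 CPM with vehicle (median 54.5) and from 40.5 to 48.9 CPM with JQ1 (median 46.1). Its log2 fold change was −0.29 ± 0.10 (unadjusted p 0.00963). Trpc5 had the largest log2 fold change of the 37, 0.78 ± 0.32 (unadjusted p 0.0275), over a range of 2.74 to 12.5 CPM with vehicle and 8.00 to 16.9 CPM with JQ1. Trpc1 gave 0.25 ± 0.09 (unadjusted p 0.0117) and Trpc4 0.11 ± 0.11. Trpm3, opened by heat and steroids, gave 0.46 ± 0.33, over 7.98 to 31.6 CPM with vehicle (median 20.9) and 17.5 to 36.3 CPM with JQ1 (median 26.8). Trpm3 is abundant in choroid plexus, and the JQ1 mice with most Ttr, replicate 3 at 115 CPM and replicate 4 at 85.2, held 27.6 and 25.9 CPM of Trpm3, while replicates 2 and 5, with Ttr at 7.39 and 9.26, held 35.7 and 36.3. The same 2 JQ1 mice had the highest levels of the dentate marker Prox1, 76.4 and 82.7 CPM. The part of choroid plexus or dentate tissue in the spread of Trpm3 was not tested.

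**Figure D3:**
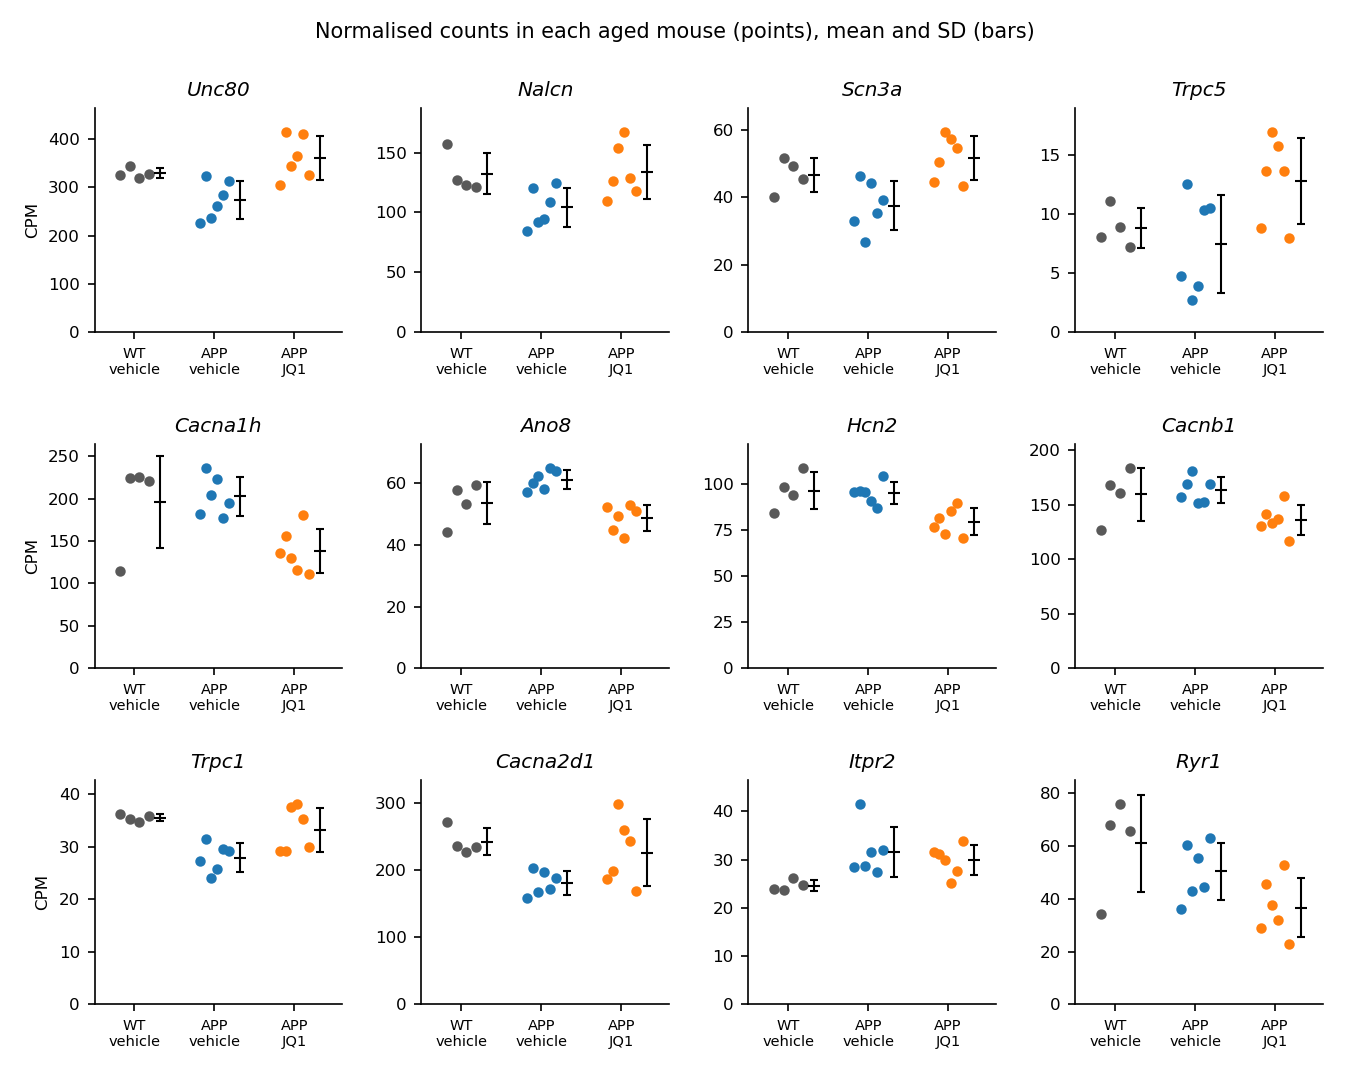
CPM of 12 channel genes in each aged mouse, with WT vehicle in grey, APP vehicle in blue and APP JQ1 in orange, a point per mouse, and the mean and SD as black bars, on axes that start at 0. The JQ1 points of Ano8 lie below all vehicle-treated APP points, and WT replicate 1 is the low point of Cacna1h at 115 CPM.

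The direction after JQ1 in APP mice went along with the base composition of the genes. GC content, taken from the longest transcript of each gene, ran from 38.97% for Cacnb2 to 65.38% for Hcn2. Of the 19 members with 50% GC or less, 16 had a positive log2 fold change, with a median of 0.20. Of the 18 members with over 50%, 16 had a negative one, with a median of −0.27. Pearson's r between GC content and log2 fold change was −0.80 over the 37 members and −0.38 over all genes tested with a known GC content, which share libraries and normalization. The 7 members with higher means and an unadjusted p under 0.05 had 40.47% to 48.32% GC, and the 7 with lower means had 53.85% to 65.38%, so these sets do not overlap.

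Libraries differed in the same respect. The log2 difference between the quartile of genes richest in GC and the quartile poorest in GC, relative to the average library, ran from 0.11 to 0.32 in the 6 vehicle-treated APP mice and from −0.39 to 0.02 in the 6 JQ1-treated APP mice, so the groups did not overlap. In WT mice it ran from −0.40, in replicate 1, to 0.13. The treatment and this property of the libraries cannot be told apart in the counts. Each library was also corrected for the GC content and length of the longest transcripts. This correction took the medians of the members to 0.08 and −0.11, Pearson's r to −0.39 and the calls over all genes from 184 to 42. No member was called under it, where 0.25% of all genes were. The sign turned for 7 of the 37 members, from negative to positive for Cacnb1, Cacnb3, Hcn2 and Hcn4 and from positive to negative for Cacna1c, Cacnb2 and Ryr3. After the correction Unc80 stood at 0.24, Scn3a at 0.23, Nalcn at 0.21, Cacna1h at −0.35 and Ano8 at −0.14.

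**Figure D4:**
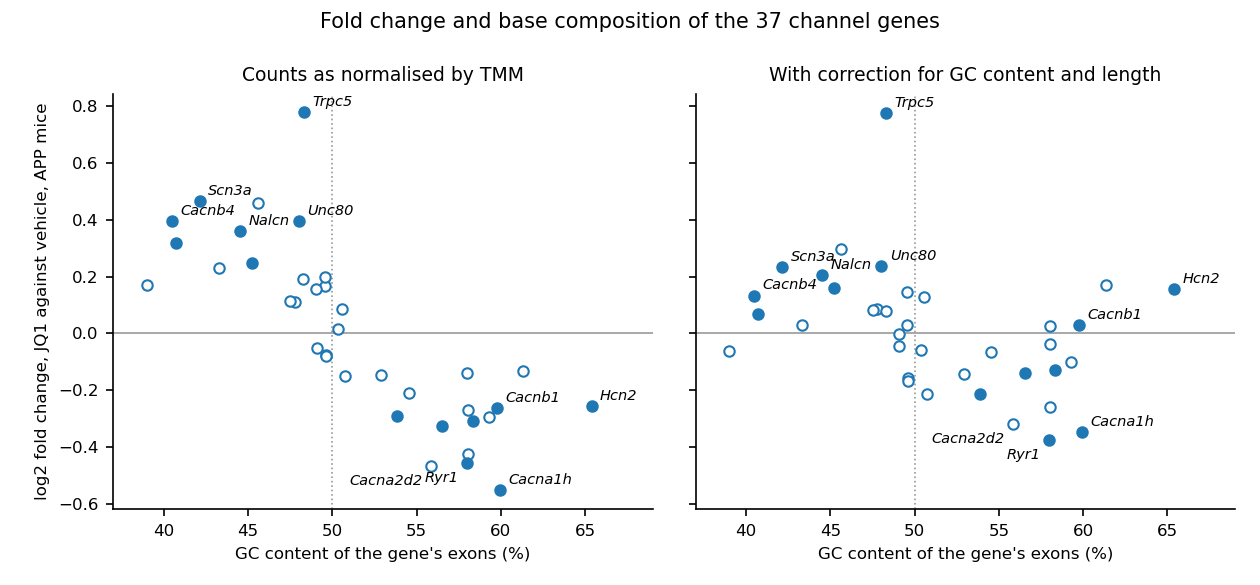
Log2 fold change of JQ1 against vehicle in APP mice (y axis) for 37 channel genes against GC content in percent (x axis). The panels show counts as normalised (left) and with a correction of each library for GC content and length (right). GC content is that of each gene's longest transcript, though the axis label names exons. Filled points had an unadjusted p under 0.05 before the correction, and 7 of the 37 points change sides of 0, 4 of them upwards (Cacnb1, Cacnb3, Hcn2 and Hcn4) and 3 downwards (Cacna1c, Cacnb2 and Ryr3).

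APP mice and WT mice, both given vehicle, were compared to ask how channel expression differs in the amyloid model. By edgeR none of the 37 members had an adjusted p under 0.05, where 2.57% of all genes did, and the lowest was 0.0735 for Trpc1. At an unadjusted p under 0.05 stood 9 members, 24.3%, against 14.4% of all genes, 7 with lower and 2 with higher means in APP mice. DESeq2 called Trpc1 and Cacna2d1, both lower, where it called 4.3% of all genes. Groups did not overlap for 3 members, Trpc1 and Cacna2d1 lower and Itpr2 higher, against 6.99% of all genes. This share of members is near that of all genes.

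Trpc1, a subunit of receptor-operated cation channels, stood at 36.2, 35.2, 34.7 and 35.9 CPM in the 4 WT mice and from 24.1 to 31.6 CPM (median 28.2) in APP mice given vehicle, so the ranges did not meet. Its log2 fold change was −0.35 ± 0.10, with an adjusted p of 0.0735 in edgeR and 0.0204 in DESeq2, and it was −0.35 under the GC and length correction as well, at an adjusted p of 0.0402. Cacna2d1 stood at 273, 236, 227 and 234 CPM in WT mice and from 159 to 204 CPM (median 181) in APP mice, a log2 fold change of −0.42 ± 0.13, with an adjusted p of 0.116 in edgeR and 0.0497 in DESeq2. Itpr2, the IP3 receptor of astrocytes, stood at 23.9, 23.7, 26.2 and 24.7 CPM in WT mice and from 27.4 to 41.5 CPM (median 30.1) in APP mice. Its log2 fold change was 0.36 ± 0.11 at an adjusted p of 0.115. The summed level of the 4 astrocyte markers moved with it, from 893 to 1053 CPM in WT and from 995 to 1303 CPM in vehicle-treated APP mice, with Aqp4, Slc1a3, Aldh1l1 and Gja1 all detected. Their part in the level of Itpr2 was not tested.

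The remaining members at an unadjusted p under 0.05 were Nalcn, with a log2 fold change of −0.34 ± 0.13, Scn3a, with −0.32 ± 0.13, Trpc4, with −0.31 ± 0.13, Unc80, with −0.26 ± 0.11, Cacnb2, with −0.23 ± 0.09, and Ano8, with 0.19 ± 0.09. The GC and length correction took Ano8 to 0.026, at an adjusted p of 0.883, and Cacnb2 to −0.13. CA1 pyramidal markers had a median log2 fold change of −0.28 in this comparison, with 1 of 5 lower at an unadjusted p under 0.05, CA3 and CA2 markers −0.31 with 0 of 4, and thalamus markers 0.48 with 2 of 3 higher, and their part in the members' values was not tested. Unc80 stood at 326, 344, 319 and 328 CPM in WT mice, above the vehicle median of 273 in APP mice. Scn3a stood at 40.1, 51.5, 49.3 and 45.3 CPM, and Ano8 at 44.1, 57.8, 53.3 and 59.2 CPM. The 3 T-type pores had log2 fold changes between 0.05 and 0.26, and none had an unadjusted p under 0.05. Cacna1h and Cacna1i turned to −0.10 and −0.08 with the correction, under which the median over all genes was −0.07. Summed interneuron markers ran from 820 to 918 CPM in WT and from 671 to 856 in vehicle-treated APP mice, and Scn1a, with a log2 fold change of −0.27 ± 0.13, was not at an unadjusted p under 0.05. Cacna1h stood at 115 CPM in WT replicate 1 and at 224, 226 and 220 CPM in the other 3. Without WT replicate 1, 7 members stood at an unadjusted p under 0.05, against 9.8% of all genes, and none was called by edgeR, against 0.889%. Ryr1 and Scn3b joined the 3 members without overlap, where the groups did not overlap for 9.21% of all genes, and the log2 fold change of Ano8 was 0.09.

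Trpm3 stood at 15.7, 23.6, 50.1 and 17.8 CPM in WT mice. The value of 50.1 belongs to replicate 4, whose Ttr was 3062 CPM, and the part of choroid plexus tissue in it was not tested. The log2 fold change of Trpm3 was −0.43 ± 0.36 with all WT mice and 0.05 ± 0.33 without replicate 4, and neither had an unadjusted p under 0.05. Hcn2 stood at 84.0, 98.6, 94.2 and 109 CPM, Cacnb1 at 126, 168, 161 and 184 CPM and Trpm2 at 52.5, 50.8, 50.6 and 53.2 CPM in WT mice. Their log2 fold changes in APP mice were −0.02 ± 0.09, 0.03 ± 0.10 and 0.12 ± 0.11. By GC content, the 19 members with 50% or less had a median of −0.26 and the 18 others 0.05, with a Pearson's r of 0.66 over the 37 and 0.16 over all genes. With the correction the medians were −0.28 and −0.09, r was 0.33, and 9 of the 37 members turned from positive to negative. The median over all genes also fell, from 0.01 to −0.07, so part of this shift was shared by genes in general.

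JQ1-treated APP mice were also set against vehicle-treated WT mice, a comparison that shares samples with both of the above. By edgeR again none of the 37 members had an adjusted p under 0.05, where 2.06% of all genes did, and 6 members, 16.2%, stood at an unadjusted p under 0.05, against 14.1% of all genes. 5 of them had lower means in JQ1-treated APP mice and 1, Itpr2 at 0.28 ± 0.11, a higher one. DESeq2 called Hcn2 and Ryr1, both lower, where it called 4.43% of all genes. Ryr1 stood at 34.3, 68.0, 75.7 and 65.7 CPM in WT mice and had a log2 fold change of −0.73 ± 0.24, with an adjusted p of 0.138 in edgeR and 0.0366 in DESeq2. Hcn2 gave −0.28 ± 0.09, with an adjusted p of 0.109 in edgeR and 0.044 in DESeq2, and −0.11 at an adjusted p of 0.551 with the GC and length correction. Cacna1h gave −0.51 ± 0.17, Cacnb1 −0.23 ± 0.10 and Cacna2d3 −0.21 ± 0.09. Trpm2 was the 1 member whose groups did not overlap, with lower values in JQ1-treated APP mice, against 3.72% of all genes.

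This comparison depended on each WT mouse. Over all genes, 349 calls became 25, 30 and 11 without WT replicates 3, 4 and 5, and 153 without replicate 1. Without WT replicate 1, edgeR called Cacna1h, at a log2 fold change of −0.70 and an adjusted p of 0.0309. It called 0.883% of all genes. 5 members stood at an unadjusted p under 0.05, against 17.1% of all genes. The groups then did not overlap for 6 members, against 10.1% of all genes. All 6 were lower in JQ1-treated APP than in WT mice, which differ in both genotype and treatment: Cacna1h, Cacnb1, Hcn2, Ryr1, Ano8 and Trpm2. With the GC and length correction and all WT mice, edgeR called 3 members, Scn8a at −0.37, Cacna1h at −0.45 and Ryr1 at −0.81, where 3.35% of all genes were called. Over all genes the calls went from 349 to 561, and those of genes with lower means from 22 to 205. The median log2 fold change over all genes went from 0.00 to −0.08 with this correction. The 7 members with lower means in vehicle-treated APP mice at an unadjusted p under 0.05 had here log2 fold changes of 0.15 ± 0.14 for Scn3a, 0.13 ± 0.11 for Unc80, 0.02 ± 0.13 for Nalcn, −0.06 ± 0.10 for Cacnb2, −0.10 ± 0.10 for Trpc1, −0.10 ± 0.13 for Cacna2d1 and −0.20 ± 0.13 for Trpc4. None of the 7 had an unadjusted p under 0.05 by edgeR, which does not show that the groups are equal, and no DESeq2 call was among them. With the GC and length correction all 7 had negative log2 fold changes. These were −0.05 for Scn3a, −0.06 for Unc80, −0.12 for Nalcn, −0.19 for Cacnb2 and Trpc1 and −0.27 for Cacna2d1 and Trpc4. Scn3a and Unc80 thus lay above the corrected median over all genes of −0.08.

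JQ1 in young WT mice was compared with vehicle by limma on log2(FPKM + 0.1) over 18420 loci, with 36 members tested and Hcn4 below the filter. No member was called, where 0.00543% of all loci were, and 2 members, 5.6%, stood at an unadjusted p under 0.05, against 4.65% of all loci. The groups overlapped for every member, where they did not for 0.0271% of all loci. The median log2 fold change of the members was 0.01 and its median size was 0.05, against 0.07 over all loci. Trpm3 was lower by 0.27 ± 0.10 on this scale (unadjusted p 0.0161, adjusted p 0.981), from 5.82 to 9.22 FPKM with vehicle (median 7.26) and from 4.98 to 7.68 FPKM with JQ1 (median 5.74). The median of Ttr was 5.92 FPKM with vehicle and 4.76 FPKM with JQ1, and its part in the level of Trpm3 was not tested. Cacnb3 was higher by 0.13 ± 0.06 (unadjusted p 0.0493, adjusted p 0.981), with medians of 52.0 and 58.1 FPKM.

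The members that stood out after JQ1 in APP mice gave small values in young mice. Unc80 ranged from 36.2 to 46.0 FPKM with vehicle (median 41.6) and from 37.3 to 45.6 with JQ1 (median 42.0), a log2 fold change of 0.04 ± 0.05. Scn3a ranged from 6.94 to 9.18 and from 6.31 to 9.85 FPKM, with 0.06 ± 0.08. Cacna1h ranged from 26.0 to 41.5 and from 25.3 to 45.0 FPKM, with 0.09 ± 0.13. These ranges overlap almost fully. Ano8 ranged from 13.0 to 18.0 and from 14.1 to 18.3 FPKM, with 0.05 ± 0.07. Hcn2 ranged from 24.9 to 37.9 and from 25.1 to 34.5 FPKM, with −0.02 ± 0.08. Cacnb1 ranged from 32.7 to 40.9 and from 31.1 to 49.3 FPKM, with 0.12 ± 0.08. The aged and young values were normalised separately and in different units, and no test between them was made. Pearson's r with GC content was 0.04 over the 36 members in young mice, where the balance of GC-rich and GC-poor genes ran from −0.20 to 0.16 with JQ1 and from −0.26 to 0.13 with vehicle.

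Trpm2 had 1 value that stood far from the rest. JQ1 replicate 2 held 83.8 FPKM, the other 7 JQ1 mice 8.73 to 12.3 and the 8 vehicle mice 8.19 to 10.5. Its locus is joined in the files with the small genes Gm22394 and Gm22871, which lie in it, so the value cannot be given to Trpm2 alone. The log2 fold change was 0.39 ± 0.38 with all mice and 0.00 ± 0.07 without that mouse.

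Proteins that bind or regulate these channels gave the setting. Of 30 such partners, 30 were tested in the aged mice, and after JQ1 in APP mice edgeR called 1, Fgf14, an intracellular factor that binds sodium channels at the axon initial segment. Fgf14 rose from 20.7 ± 2.45 CPM with vehicle to 30.0 ± 5.18 CPM with JQ1 (SD, 6 mice each), a log2 fold change of 0.53 ± 0.12 at an adjusted p of 0.0397, and stood at 29.1 ± 4.79 CPM in WT mice. At an unadjusted p under 0.05 were 2 partners with higher and 6 with lower means, where 8.42% and 9.19% of all genes were, among them Sptbn4, the spectrin of the axon initial segment, at −0.41 ± 0.11 (adjusted p 0.064). The GC and length correction took Fgf14, whose longest transcript holds 39.3% GC, to 0.32 ± 0.10 at an adjusted p of 0.301, so the call was lost. The call was also lost on leaving out 9 of the 16 aged mice in turn. In young mice Fgf14 gave −0.0050 ± 0.078. Of 30 further cation channel genes that are no members, 28 were tested in the aged mice. By edgeR none was called after JQ1 in APP mice, with 2 higher and 4 lower at an unadjusted p under 0.05, beside the same shares of all genes. In vehicle-treated APP against WT mice edgeR called 1, the proton channel Hvcn1, known from microglia, which rose from 10.6 ± 0.82 to 21.3 ± 4.84 CPM, a log2 fold change of 1.01 ± 0.21 at an adjusted p of 0.0109, and of 0.0575 without WT replicate 1. The summed level of 4 microglia markers ran from 185 to 219 CPM in WT and from 343 to 470 CPM in vehicle-treated APP mice, and its part in the level of Hvcn1 was not tested.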

How the data were processed

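RNA-seq of the CA1 region is labelled for 33 mice, each a sample of its own. Values of 32 were used, and WT vehicle replicate 2 was not analysed here. Per the labels and the study's methods, the authors sequenced on a HiSeq2000, processed base calls with CASAVA 1.8.2 and aligned reads to mm10 with STAR. For the aged mice the authors deposited raw read counts per gene from HTSeq. For the young mice the deposited values are FPKM from Cuffdiff, scaled by gene length and library size, and their depth is unknown. The annotation release and strand setting are not given in the sources used here.

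Counts were tested with edgeR 4.0.16 (TMM, filterByExpr, robust quasi-likelihood test, 1 fit of 3 groups, 16962 genes). FPKM of at least 0.5 in 8 or more of 16 mice were tested as log2(FPKM + 0.1) with limma 3.58.1 (trend, robust), a scale that understates the change of low genes. P-values were two-sided and Benjamini-Hochberg adjusted over all features, with a threshold of 0.05. DESeq2 1.42.0 was an alternative, as were other normalisations, filters and pseudocounts, fits of 2 groups, a replicate block, leaving out each mouse, and a correction per library for GC content and length (splines, 5 degrees of freedom). The fits were also run on data simulated without a GC imbalance between groups, which cannot show how such an imbalance affects them. Summary lines of the count files that name no gene held 40.6% to 52.9% of all reads and were left out. Gene positions and GC content are from GENCODE vM21 and promoters from RefSeq, both on GRCm38. GC content, and the length used in the correction, are those of each gene's longest transcript. Reads on overlapping exons could not be assigned by strand, and 14 members share exon bases with another gene.

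The members and lists were chosen with earlier results of these data known. Members were named where p was under 0.05 unadjusted or groups did not overlap, or where the study names them. Part of the transgenic line's description is not reported here.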

Additional observations from a re-analysis of the deposited data

Results flagged for a closer look

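Among 185 sets of values, each a member in 1 group, 13 held a mouse that stood apart from its group, where chance gives about 1 in 20, or 9.25. WT replicate 1 held 5 of them. It was the lowest WT mouse for Scn4b at 27.2 CPM against 40.1 to 42.8 in the others, for Cacna1b at 159.8 against 164.5 to 165.1, for Cacna1g at 86.6 against 126 to 131 and for Cacna1h at 115 against 220 to 226. It was the highest for Cacnb4, at 155 CPM against 118 to 122. WT replicate 3 was the highest for Cacna1e, at 254 CPM against 219 to 221.

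In vehicle-treated APP mice, replicate 1 was the lowest for Scn4b, at 16.6 CPM against 32.7 to 43.7, and the highest for Cacna2d2, at 109 CPM against 31.4 to 48.5. Replicate 2 was the highest for Itpr2, at 41.5 CPM against 27.4 to 31.96. In JQ1-treated APP mice, replicate 1 was the highest for Cacna2d2, at 53.7 CPM against 33.2 to 38.2, and replicate 6 the lowest for Trpm2, at 40.5 CPM against 45.9 to 48.9. In young mice given JQ1, replicate 1 held 51.4 FPKM of Cacna1g against 23.8 to 33.2, and replicate 2 held 83.8 FPKM of Trpm2 against 8.73 to 12.3.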

How the results depend on the processing

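Over 31 fold changes of members and their alternatives, 712 of 746 values kept their direction and side of the threshold, 30 passed it and 4 turned. None of the 31 was called in the main fit, so the 712 kept their sign and stayed uncalled, whatever their size. Cacna2d1 after JQ1 in APP mice, counted as kept throughout, went from 0.32 to as little as 0.054. The 4 that turned were after JQ1 in APP mice. Cacnb1 went to 0.028 and Hcn2 to 0.16 with the GC and length correction, and to 0.022 and 0.16 with the replicate block as well. In that comparison the members called numbered 1 with at least 10 counts in every sample (1.53% of all genes), 5 with DESeq2 (5.24%), 2 with only the 2 groups fitted (0.937%), and 0 to 4 on leaving out 1 mouse (65 to 446 genes in all). Members with over 50% GC had a median of −0.11 with the correction and −0.12 with the block as well. In vehicle-treated APP against WT mice 1 member was called with the correction (3.04% of all genes), 2 with DESeq2 (4.3%), 2 with the 2 groups alone (4.13%), and 0 to 1 on leaving out 1 mouse (Trpc1 without JQ1 replicate 4 or vehicle replicate 2, 154 to 601 genes in all). In JQ1-treated APP against WT mice 3 were called with the correction (3.35% of all genes), 1 with the block and correction (0.292%), 2 with DESeq2 (4.43%) and 0 to 1 on leaving out 1 mouse (11 to 651 genes in all). Scn3b ranked 2 by CPM per kilobase in aged mice. Over all genes, JQ1 in APP mice gave 184 calls, 749 with DESeq2 and 42 with the correction (35 higher, 7 lower, against 105 and 79).

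Whether replicate numbers pair the mice is not settled by the values. Same-numbered JQ1 and vehicle APP mice had correlations of −0.11 to 0.34. Their mean was 0.12 against −0.02 for other pairs, and 3 of 6 correlated best with their own number. In young mice the correlations ran from −0.07 to 0.10, with a mean of 0.03 against −0.004 and 2 of 8. Against WT mice the means were −0.05 against 0.02 for vehicle-treated and −0.22 against 0.05 for JQ1-treated APP mice. With the replicate block 0 members were called in each comparison, and 87 genes in all after JQ1 in APP mice, 35 in vehicle-treated APP against WT and 21 in JQ1-treated APP against WT, where 184, 436 and 349 were called without it. Depth limits Hcn4 only in the aged mice. The causes of these shifts were not tested.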
